A study of Mus musculus with 16 samples.

Results

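Nr4a1 (also called Nur77), Nr4a2 (Nurr1) and Nr4a3 (Nor1) form the NR4A family of orphan nuclear receptors, and they are described here in the subchondral bone of mouse knees after joint surgery. The members were taken as every non-control probe whose gene name in the scanner output was one of these 3 symbols, which gave 6 probes of 56605 and 3 genes of 37008. All 3 genes, through 5 of the 6 probes, passed the filter for a signal well above background on at least 4 of 16 arrays. The genes were chosen with their levels on these arrays already in view, including the difference of Nr4a2 between the times, so levels and differences of members are given as description with their errors and with no p-value. The study followed post-traumatic osteoarthritis in wild type male C57BL6 mice that were 10 to 12 weeks old at surgery. In the DMM group the ligament that tethers the medial meniscus to the tibia was cut in both knees, and in the sham group both knees were opened and that ligament was seen but left whole. Mice were killed 1 or 6 weeks later, and each of the 4 groups (sham and DMM at either time) had 4 mice with 1 knee each, so a replicate is the pooled laser-cut sections of bone under the medial tibial cartilage of 1 mouse. There was no unoperated group, and the 6-week mice were older at harvest, so time after surgery and age cannot be told apart.

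NR4A receptors have no classical ligand, so their activity follows how much protein a cell makes. They are immediate early genes: parathyroid hormone, prostaglandins, adrenergic signals, antigen receptors and mechanical load raise their transcripts quickly and briefly, through cAMP and CREB, through calcium and MEF2 factors, or through other kinase pathways. The proteins bind the NBRE element, AAAGGTCA, as monomers, and Nr4a1 and Nr4a2, but not Nr4a3, also pair with the retinoid X receptor. In bone, parathyroid hormone induces them in osteoblasts, where Nr4a2 has been reported to act on osteopontin (Spp1) and osteocalcin (Bglap), and in marrow Nr4a1 is needed for patrolling, Ly6c-low monocytes.

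The probes decide which transcripts are seen, so their letters are shown first, in lower case and 5′ to 3′. 3 of the 60-base probes are given whole and the other 3 by their first 30 bases. Positions are on mm9, the build named in the scanner file headers, and exon or UTR annotation of that build was not used here.
Nr4a1 probe A_51_P239654: ctcttccgctctccttccatgtgtacataa
Nr4a2 probe A_52_P494622: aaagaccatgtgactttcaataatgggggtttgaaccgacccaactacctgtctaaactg
Nr4a2 probe A_66_P118213: ctaaatgttgcgtgggtggcatgaattgaa
Nr4a3 probe A_66_P103105: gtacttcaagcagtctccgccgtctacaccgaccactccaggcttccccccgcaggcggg
Nr4a3 probe A_66_P132423: actcggaaaaaccaaccaccagaaactccc
Nr4a3 probe A_51_P128397: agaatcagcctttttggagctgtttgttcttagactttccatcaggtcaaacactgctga
The single Nr4a1 probe lies at chr15:101105071-101105130 on the plus strand, from base 2321 of its transcript. Both Nr4a2 probes lie on the minus strand, at chr2:56960699-56960758 and, further 3′, at chr2:56960000-56960059, from bases 2050 and 2749 of the same transcript. The 3 Nr4a3 probes lie on the plus strand and name different transcripts. A_66_P103105 at chr4:48064521-48064580 was designed on RefSeq transcript variant 2, from its base 403, and A_66_P132423 at chr4:48062977-48063036 on an Ensembl transcript. A_51_P128397 was designed on RefSeq transcript variant 1, and its 60 bases span 3187 bases of the genome (chr4:48080690-48083876), so that probe crosses an intron. The Nr4a3 probe A_66_P103105 had a GC content of 66.7%, higher than 99.5% of all probes, against 45% for the Nr4a1 probe and 43.3% for both Nr4a2 probes.

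The promoters are shown because these genes are usually described as responding to the same cAMP signals. The 250 bases before each gene's start were taken from RefSeq's GRCm38.p6 table, where all 3 genes were found. Nr4a1 is at chr15:101266596-101266845 (plus strand), Nr4a2 at chr2:57124004-57124253 (minus strand) and Nr4a3 at chr4:48045055-48045304 (plus strand). Capitals mark TGACG, the core of the cAMP response element, on either strand.
Nr4a1 promoter: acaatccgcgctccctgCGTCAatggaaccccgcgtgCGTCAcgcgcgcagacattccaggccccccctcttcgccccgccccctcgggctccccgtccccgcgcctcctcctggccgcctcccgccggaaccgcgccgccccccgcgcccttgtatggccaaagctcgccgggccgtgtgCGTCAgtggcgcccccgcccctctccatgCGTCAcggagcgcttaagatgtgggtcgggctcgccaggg
Nr4a2 promoter: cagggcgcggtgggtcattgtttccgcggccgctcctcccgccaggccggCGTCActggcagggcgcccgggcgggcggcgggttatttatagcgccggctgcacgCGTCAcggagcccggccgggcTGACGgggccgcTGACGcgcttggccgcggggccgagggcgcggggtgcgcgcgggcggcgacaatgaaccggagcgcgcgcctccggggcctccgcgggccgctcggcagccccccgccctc
Nr4a3 promoter: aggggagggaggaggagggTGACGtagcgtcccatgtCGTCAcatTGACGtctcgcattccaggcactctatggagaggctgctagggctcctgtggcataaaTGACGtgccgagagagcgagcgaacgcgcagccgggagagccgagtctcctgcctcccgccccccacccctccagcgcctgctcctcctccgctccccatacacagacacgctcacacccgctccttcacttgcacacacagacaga
Each of the 3 promoters held 4 matches to TGACG, while 17.8% of 32851 mouse promoters of the same length held any and 0.688% held more than 2. The GC content of these windows was 74.4% for Nr4a1, 80% for Nr4a2 and 63.6% for Nr4a3. TGACG itself holds a CG pair, and promoters of like GC content were not set apart in these shares. None of the 3 held the full element TGACGTCA, which also contains TGACG and was found in 1.55% of promoters. None held the NBRE (AAAGGTCA, 1.34% of promoters), the AP-1 element TGANTCA (6.75%) or the CArG box that serum response factor binds (1.47%). The Nr4a2 promoter held 1 match to TATAAA, present in 12.4% of promoters, and the others held none. These are matches of letters in a short window and were not tested for binding or effect.

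Signals are given as log2 of the scanner's processed signal minus the 75th percentile of the same array, called the relative level below. That percentile lay between 329 and 873 over the arrays, 65.3 to 79.6% of probes were well above background, no spot was saturated, and repeat spots of a probe varied by 2.22 to 4.32%. The array of sham 6-week replicate 2 stood apart: its percentile was 329, against at least 471 elsewhere, and results that rest on it are given without it too. The tissue label was set against marker genes: all 8 osteoblast and all 4 osteocyte markers listed were measured, as were all 7 neutrophil and all 8 chondrocyte markers. The log2 summed relative level was 8.92 to 10.6 for the osteoblast list and 10.6 to 11.4 for the neutrophil list, so markers of marrow cells were measured beside those of bone. These are bulk samples, in which fewer cells of a type and less RNA per cell cannot be told apart.

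Nr4a2, the family member with the widest range among groups, was lower at 6 weeks than at 1 week after both operations. After sham surgery its 1-week levels were -0.74, -0.33, -1.37 and -0.05, and its 6-week levels were -1.99, -1.56, -1.98 and -1.63. After DMM they were 0.56, 0.35, -1.17 and 0.06 at 1 week and -2.38, -2.18, -1.37 and -1.33 at 6 weeks. After either operation every 6-week array was below every 1-week array, and over both operations 7 of 8 arrays at 1 week were above all 8 at 6 weeks. The exception was sham 1-week replicate 3 at -1.37, and DMM 1-week replicate 3 at -1.17 was the other low array of its time. The groups in order were DMM at 1 week (-0.05 ± 0.77, SD, n = 4), sham at 1 week (-0.62 ± 0.57), sham at 6 weeks (-1.79 ± 0.23) and DMM at 6 weeks (-1.82 ± 0.54). The operations overlapped at each time, so only the step between the times separated neighbours in this order.

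**Figure D1:**
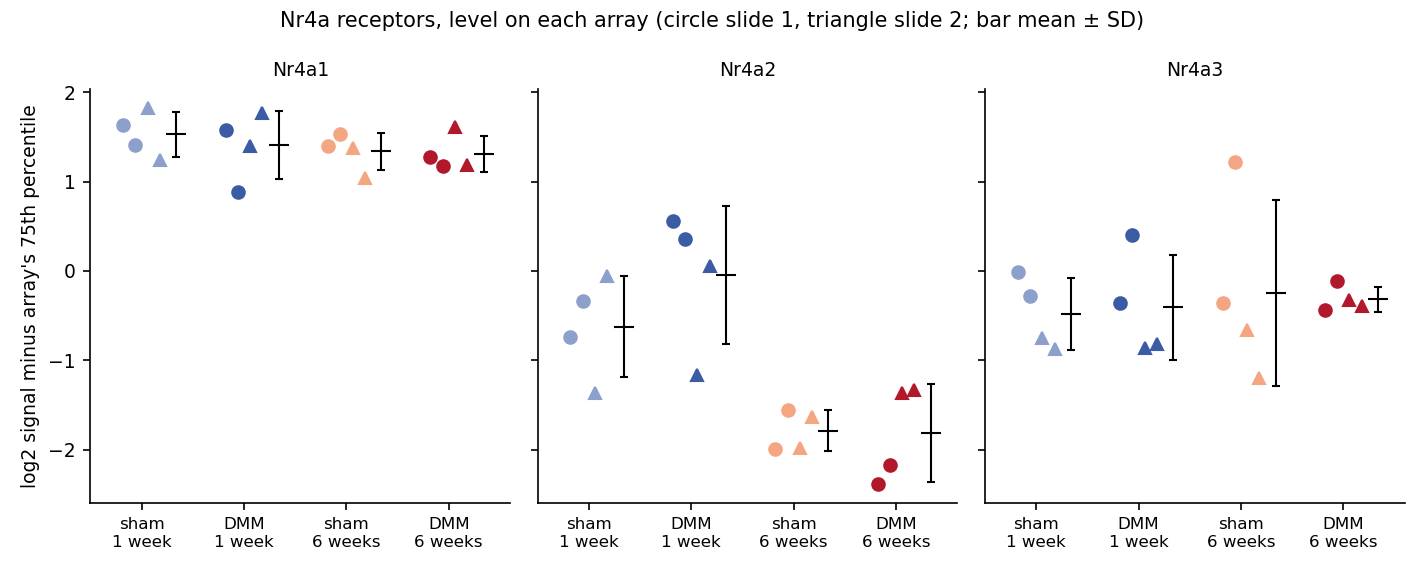
Relative level (log2 signal minus the array's 75th percentile) of Nr4a1, Nr4a2 and Nr4a3 on each of the 16 arrays by group, with circles for slide 1, triangles for slide 2 and the group mean ± SD beside them. Nr4a2 sits between -1.37 and 0.56 at 1 week and between -2.38 and -1.33 at 6 weeks, Nr4a1 stays between 0.89 and 1.82, and Nr4a3 has 1 high array, sham 6-week replicate 2 at 1.22.

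Averaged over both operations, the level of Nr4a2 at 6 weeks minus that at 1 week was -1.47 ± 0.27 (SE), which is 2.76-fold lower. It was -1.17 ± 0.37 after sham and -1.77 ± 0.37 after DMM. The arrays were on 2 slides with 2 arrays of each group on each, and the difference was -1.99 on slide 1 and -0.94 on slide 2. After DMM alone the slides gave -2.74 and -0.79. In the limma fit over all 28250 genes, 247 genes were called between the times (0.874%, of which 181 were higher and 66 lower at 6 weeks, adjusted p under 0.05 after Benjamini-Hochberg). Nr4a2 was 1 of these, and since this difference was among the values that chose it, nothing is read from that call, which held in 11 of 25 other settings, among them 4 of the 16 fits without 1 array. Likewise, 156 genes (0.552%) had all arrays lower at 6 weeks after each operation, as Nr4a2 did. The number of genes called depended on single arrays: it was 1502 without sham 6-week replicate 2, 695 without DMM 1-week replicate 3 and 490 without DMM 6-week replicate 3, and it fell to between 0 and 3 when any other single array was left out, apart from sham 1-week replicate 3. Nr4a2's own difference stayed between -1.65 and -1.37 in those fits.

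The other Nr4a2 probe, further 3′ on the same transcript, measured the same direction with more overlap. Its levels at 1 week were -1.07, -0.93, -1.84 and -0.59 after sham and -0.20, -1.09, -1.65 and -0.35 after DMM. At 6 weeks they were -2.55, -1.39, -1.98 and -1.72 after sham and -2.74, -2.70, -1.53 and -1.58 after DMM. The times overlapped within each operation. The difference was -1.06 ± 0.28 over both operations, with -1.52 on slide 1 and -0.60 on slide 2. Over the 16 arrays the Nr4a2 probes correlated with r = 0.93, and with r = 0.87 once group means were subtracted, a description that shares the same RNA and the same arrays.

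DMM and sham were compared at each time, which is the study's question about joint instability. At 1 week Nr4a2 was 0.57 ± 0.37 higher after DMM, with 0.99 on slide 1 and 0.16 on slide 2, and the groups overlapped. Its further 3′ probe gave a smaller difference of 0.28 ± 0.40, also with overlap. In the same comparison all 8 osteoblast markers (median 0.36), all 5 endothelial markers (0.21) and all 4 synovial lining and ligament markers (0.48) were higher after DMM. All 5 B cell (0.25) and all 5 skeletal muscle markers (0.26) were higher too. All 5 platelet and megakaryocyte markers were lower (median -0.57). So were all mast cell (5, median -0.29), Ly6c-low monocyte (6, -0.28) and T and NK cell markers (6, -0.18). The Ly6c-high monocyte (5, -0.13) and marrow stromal reticular markers (5, -0.03) were all lower as well. Of 4 osteocyte markers 3 were lower (median -0.16), and of 6 erythroid markers 3 (-0.02). The adipocyte list had the largest median, 0.76, with 4 of 5 markers higher. Lower were 5 of 7 neutrophil (median -0.15), 4 of 5 macrophage (-0.10) and 4 of 5 nerve and Schwann cell markers (-0.18). So were 3 of 6 osteoclast (-0.01) and 4 of 8 chondrocyte markers (0.00). Of all these markers 0 were called. Over all genes 49.2% were lower, with a median of 0.00, and the part of these cells in the Nr4a2 value was not tested. At 6 weeks the Nr4a2 difference was -0.03 ± 0.37, with -0.51 on slide 1 and 0.46 on slide 2, and its further 3′ probe gave -0.23 ± 0.40. The change of the DMM effect from 1 to 6 weeks was -0.60 ± 0.53. No member passed the test in either comparison, where limma called 0 of 28250 genes (0%) at 1 week and 0 (0%) at 6 weeks, with 273 and 220 at an unadjusted p under 0.05. No member separated the groups either, which 310 genes (1.1%) did at 1 week and 141 (0.499%) at 6 weeks. Within either operation alone, limma called 0 genes (0%) between the times, with 2020 after sham and 2741 after DMM at an unadjusted p under 0.05.

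**Figure D2:**
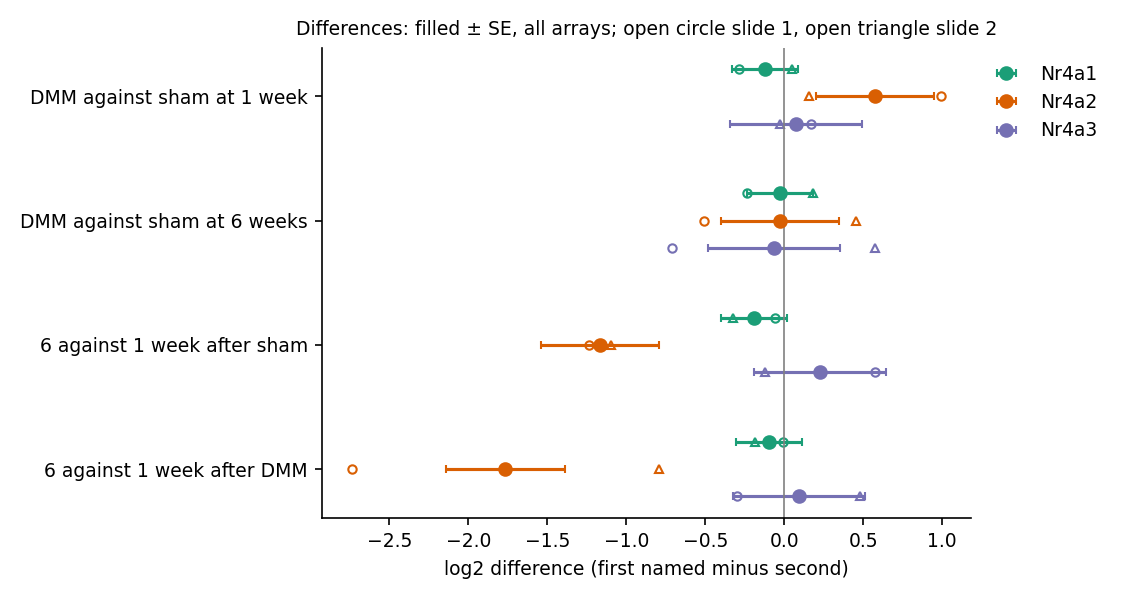
Log2 differences of the 3 genes in 4 comparisons, with filled points and bars for the difference ± SE over all arrays, open circles for slide 1 and open triangles for slide 2. The 6-week minus 1-week differences of Nr4a2 lie at -1.17 and -1.77, while those of Nr4a1 and Nr4a3 lie between -0.19 and 0.23.

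Nr4a1, the receptor best known from lymphocyte activation and patrolling monocytes, had overlapping levels in all groups. Its levels at 1 week were 1.63, 1.41, 1.82 and 1.25 after sham and 1.58, 0.89, 1.39 and 1.77 after DMM. At 6 weeks they were 1.40, 1.53, 1.38 and 1.04 after sham and 1.27, 1.18, 1.61 and 1.18 after DMM. All groups overlapped, and the lowest array, DMM 1-week replicate 2 at 0.89, was the one that set the spread of its group. DMM minus sham was -0.12 ± 0.21 at 1 week and -0.03 ± 0.21 at 6 weeks, and 6 weeks minus 1 week was -0.14 ± 0.15. The SD within groups was 0.27, and 20.8% of genes had a smaller one, so differences of this size were measured more tightly for Nr4a1 than for most genes. These errors are 1 SE, and limma called 0 of 28250 genes between the operations at either time. A difference of Nr4a1 near these errors, or somewhat above them, could have gone undetected with 4 arrays a group.

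Nr4a3, known for its part in vascular cells, energy metabolism and leukaemia suppression, had a signal from the variant 2 probe on all 16 arrays. Its levels at 1 week were -0.01, -0.29, -0.75 and -0.87 after sham and -0.36, 0.40, -0.86 and -0.82 after DMM. At 6 weeks they were -0.36, 1.22, -0.66 and -1.20 after sham and -0.44, -0.12, -0.32 and -0.39 after DMM. The highest value and the lowest were both in the sham 6-week group. DMM minus sham was 0.07 ± 0.42 at 1 week and -0.07 ± 0.42 at 6 weeks, where the slides went opposite ways (-0.71 and 0.58) and leaving out sham 6-week replicate 2 gave 0.42. The 6-week minus 1-week difference was 0.16 ± 0.30 and -0.09 without that array. The SD within groups was 0.63, with 76.7% of genes below it.

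The other Nr4a3 probes gave little signal. The Ensembl transcript probe was well above background on 6 of 16 arrays, 2 each of sham 1-week, DMM 1-week and sham 6-week, all on slide 1, and on none of DMM 6-week. Its relative level ran from -6.92 to -3.04 over all arrays. The variant 1 probe that crosses the intron was not well above background on any array, with processed signals of 2.34 to 7.37. The level called Nr4a3 here therefore comes from the variant 2 probe alone. Each probe is named by the transcript it was designed on, and whether it sees only that transcript was not examined. The Nr4a3 probes thus disagree on whether the gene gave a signal, and which variant was present cannot be read from them. Over the 16 arrays, the variant 2 and Ensembl probes correlated with r = 0.65, and the variant 2 and variant 1 probes with r = 0.46.

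**Figure D3:**
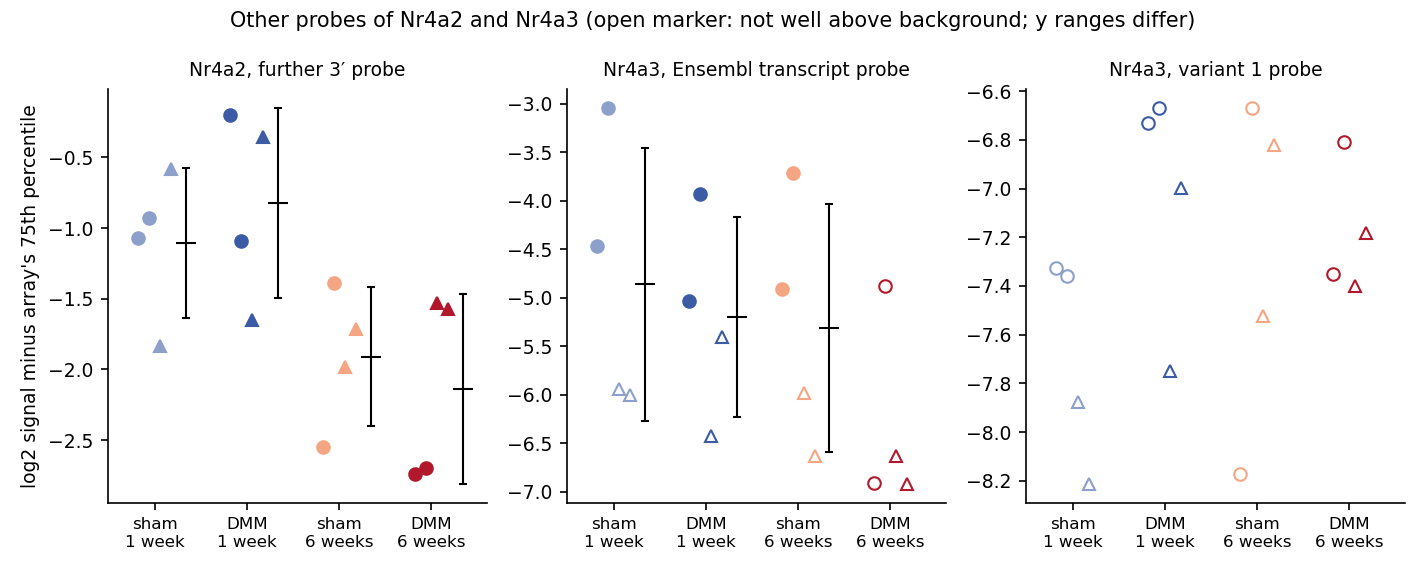
Relative level of the further 3′ Nr4a2 probe and the 2 dimmer Nr4a3 probes on each array, with open markers where the probe was not well above background and mean ± SD beside groups with any signal. The Nr4a2 probe ranges from -1.84 to -0.20 at 1 week and from -2.74 to -1.39 at 6 weeks, the filled points of the Ensembl probe are 6 slide 1 arrays, and the variant 1 probe has no filled point. The y axes differ between panels.

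The 3 members showed little correlation with each other. Over the 16 arrays Nr4a1 correlated with Nr4a2 at r = 0.10 (Spearman's rho 0.23), Nr4a1 with Nr4a3 at r = -0.03 (rho 0.08) and Nr4a2 with Nr4a3 at r = 0.03 (rho 0.04). In permutation tests with 100000 resamples, adjusted over the 39 pairs computed (3 among members and 12 for each member), the p-values for r were 1.0, 1.0 and 1.0, from raw values of 0.719, 0.902 and 0.929. Without the 2 arrays farthest from the median of the second gene, r was 0.37, -0.48 and 0.12. Within slide 1 these pairs gave 0.00, -0.04 and 0.05, and within slide 2 they gave 0.25, 0.29 and -0.16.

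Of the other immediate early genes, Klf4, a zinc finger factor that fluid shear stress induces, followed Nr4a2 most closely. Klf4 levels were 3.48 to 4.16 in sham and 3.71 to 4.56 in DMM at 1 week, and 3.01 to 3.48 in sham and 2.73 to 3.50 in DMM at 6 weeks. Klf4 was 0.81 ± 0.16 lower at 6 weeks (limma, adjusted p = 0.0390), a call kept in 11 of 25 other settings, among them 4 of 16 fits without 1 array. Over the 16 arrays it gave r = 0.91 and rho = 0.87 with Nr4a2, and r = 0.88 without the 2 arrays farthest from its median. These values draw on the difference between the times that chose Nr4a2, so they are a description with no p-value. Within a time r was 0.79 at 1 week (exact permutation p = 0.0170, adjusted over the 39 pairs 0.122, n = 8) and 0.61 at 6 weeks (exact permutation p = 0.109, adjusted 0.344, n = 8), so neither passed the correction. The slides each gave 0.91, and r was 0.72 with group means subtracted. Fos, a subunit of the AP-1 factor, gave r = 0.80 and rho = 0.80 with Nr4a2, a description for the same reason, with 0.98 on slide 1 and 0.26 on slide 2. Within the times Fos gave 0.72 at 1 week (exact permutation p = 0.0464, adjusted 0.204, n = 8) and 0.57 at 6 weeks (exact permutation p = 0.158, adjusted 0.385, n = 8), and 0.56 with group means subtracted. Fos was 0.74 ± 0.23 lower at 6 weeks and did not pass the test (limma, adjusted p = 0.113).

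**Figure D4:**
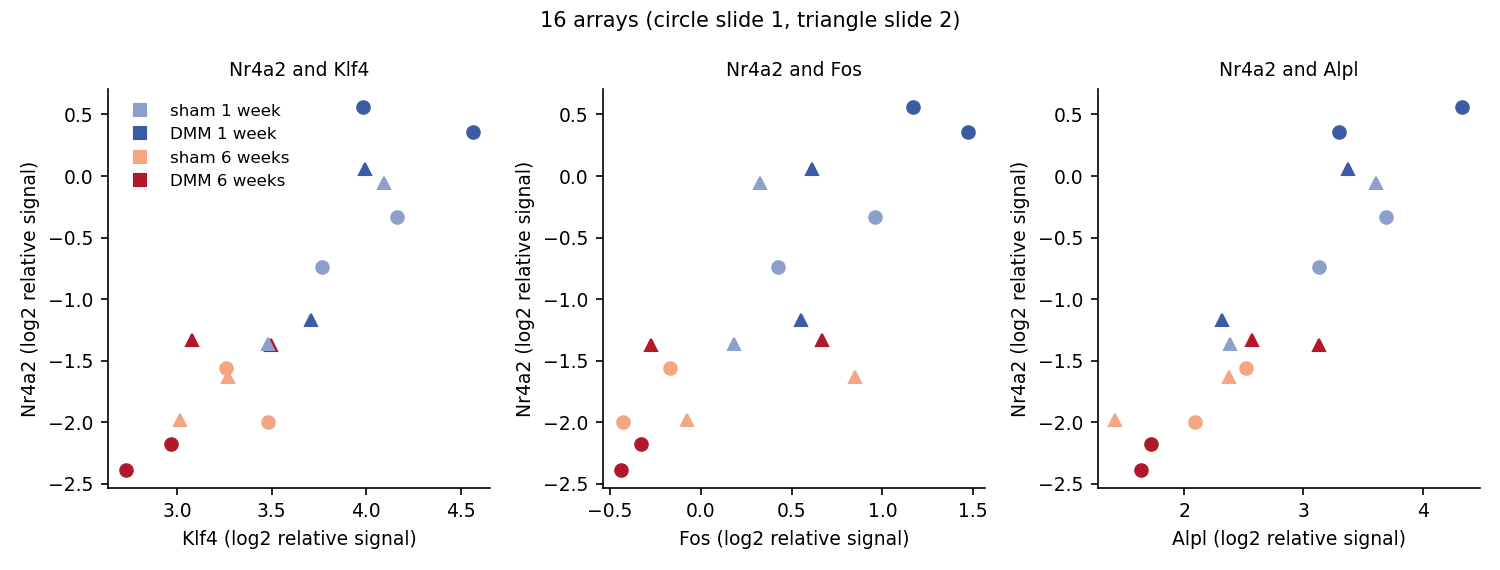
Relative level of Nr4a2 against Klf4, Fos and Alpl on the 16 arrays, coloured by group, with circles for slide 1 and triangles for slide 2. Nr4a2 lies at -1.33 or below on all 6-week arrays, and on the Fos axis 2 of these arrays, at 0.85 and 0.67, lie among those of 1 week. The r with Klf4 is 0.91 over all arrays, and the r with Fos is 0.98 on slide 1 and 0.26 on slide 2.

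The remaining immediate early genes differed in both directions between the times, mostly by small amounts. Of 43 listed genes 42 were measured, 31 were lower at 6 weeks with 2 called (Klf4 and Fosl2), and 11 were higher with 0 called. The median difference was -0.13, against 0.04 over all genes, of which 44.4% were lower. Fosl2, an AP-1 subunit active in osteoblasts and osteoclasts, was 0.71 ± 0.15 lower (limma, adjusted p = 0.0468), a call kept in 8 of 25 other settings, and its other probe gave -0.62. Egr1 gave 0.35 ± 0.29, Junb 0.24 ± 0.32, Ier2 -0.37 ± 0.14 and Dusp1 -0.32 ± 0.23, and none of these passed the test. Without sham 6-week replicate 2 they gave 0.48, -0.08, -0.36 and -0.16, so the sign of Junb rested on that array. Without it 30 of the 42 genes were lower, and the calls were Klf4, Fosl2 and, 0.66 higher, the phosphatase Dusp2. For Junb and Ier2 another probe gave the opposite sign (-0.17 and 0.21). Between DMM and sham the list had 27 of 42 genes lower at 1 week (median -0.11) and 24 at 6 weeks (median -0.05), with 0 called at either time.

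Genes on the route to NR4A transcription showed small differences between the times. Of 17 measured genes that cAMP and CREB are known to raise, 10 were lower at 6 weeks, with a median of -0.17 and 1 called (Fosl2). Of 27 regulators such as CREB, its CRTC coactivators, MEF2 factors and class IIa histone deacetylases, 18 were lower with a median of -0.09 and 0 called. Of 16 receptors that signal to these genes 8 were lower, with a median of -0.04 and 0 called. Without sham 6-week replicate 2, 10 of the 16 were lower with a median of -0.05, and limma called Pth1r (-1.03) lower and the B cell receptor chains Cd79a (0.78) and Cd79b (1.05) higher. That fit also called the histone deacetylase Hdac4 among the regulators (-0.49), with 20 of 27 lower. These were named after their values were seen. Among the receptors Pth1r, the parathyroid hormone receptor, was 2.94 to 3.97 at 1 week and 1.66 to 3.29 at 6 weeks over both operations, a difference of -0.92 ± 0.24 that did not pass the test (limma, adjusted p = 0.0733) and passed it in 4 other settings. Of 18 partners and modulators, 14 were lower with a median of -0.09 and 0 called, and the retinoid X receptor Rxra gave -0.31 ± 0.14.

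Of 17 measured genes described as NR4A targets, 5 were lower at 6 weeks, with a median of 0.24 and 0 called. Without sham 6-week replicate 2, 6 were lower with a median of 0.12, and limma called the fatty acid transporter Cd36 (1.27 higher) and the coactivator Ppargc1b (0.84 lower), both named after their values were seen. Spp1, which encodes osteopontin, gave -0.50 ± 0.19 and Bglap, which encodes osteocalcin, gave 0.26 ± 0.33, and neither passed the test.

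The genes most like each member were ranked by Pearson's r over the 16 arrays after group means were subtracted, among 19751 genes with a current symbol. These rankings are descriptions over arrays that share RNA and slide, and carry no p-value. For Nr4a2 the top 5 were Fndc4 (0.92), L3hypdh (0.91), Rom1 (0.91), Rcn3 (0.91) and Hid1 (0.91). Alpl, the alkaline phosphatase of mineralising osteoblasts, is named after its value was seen and gave 0.90. Alpl levels were 2.32 to 4.33 at 1 week and 1.42 to 3.13 at 6 weeks. Its 6-week difference of -1.08 ± 0.31 did not pass the test (limma, adjusted p = 0.0943), it passed in 2 other settings, and its other probe gave -0.29. All 8 osteoblast markers had r above 0 with Nr4a2, with a median of 0.33. So did all 4 synovial lining and ligament markers (median 0.50), all 5 endothelial markers (0.46) and all 4 osteocyte markers (0.31), while all 5 platelet and megakaryocyte markers (median -0.69) and all 6 erythroid markers (median -0.51) were below 0. All 5 macrophage (-0.39), all 5 Ly6c-high monocyte (-0.22) and all 7 neutrophil markers (-0.18) were below 0 too. Of 5 B cell markers 1 was above 0 (median -0.31). The median over all genes past the filter, with or without a current symbol, was 0.05, and 55.1% of them were above 0. Over the times the osteoblast list had 6 of 8 genes lower (median -0.48, 0 called) and the osteoclast list 6 of 6 lower (median -0.79, 1 called). The erythroid list had 6 of 6 higher (median 1.21, 1 called) and the platelet list 5 of 5 higher (median 0.86, 0 called). The called genes were the gelatinase Mmp9, 0.80 lower (limma, adjusted p = 0.0347, kept in 11 of 25 other settings), and the haem synthesis enzyme Alas2, 1.30 higher (limma, adjusted p = 0.0434, kept in 10 of 25). Without sham 6-week replicate 2, limma called 4 of the 6 osteoclast, all 6 erythroid and 3 of the 5 platelet markers, and 0 of the 8 osteoblast markers. The summed osteoblast level was 8.92 to 10.3 in sham at 6 weeks. All 4 sham arrays at 1 week, the highest at 10.2, lay within that range. In DMM the summed level was 9.67 to 10.6 at 1 week and 9.57 to 10.5 at 6 weeks, so the times overlapped after both operations. The part of a changed cell mix in the Nr4a2 difference was not tested.

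For Nr4a1 the top 5 were Fam189a1 (0.87), Sbk1 (0.85), the calcium channel subunit Cacna1d (0.85), Patj (0.84) and Dnajc27 (0.84). The highest listed genes were the clock repressor Nr1d2 (0.76), the adrenergic receptor Adrb1 (0.75) and the clock repressor Nr1d1 (0.74). Next were the CREB coactivator Crtc1 (0.71), the MEF2 factor Mef2d (0.71) and Cx3cr1, which marks patrolling monocytes (0.70). Apart from Mef2d they were named after their values were seen. The phosphatase Dusp1 was near the bottom (-0.75). All 5 B cell markers were above 0 (median 0.56). So were all 8 chondrocyte (0.47), all 8 osteoblast (0.40) and all 5 adipocyte markers (0.39). The marrow stromal reticular (5 markers, median 0.34), macrophage (5, 0.26), mast cell (5, 0.22) and erythroid lists (6, 0.11) were also wholly above 0. All 5 Ly6c-high monocyte markers were below 0 (median -0.52), while 3 of 6 Ly6c-low markers were above 0 (median 0.12). Over all genes past the filter the median was 0.01, and 51.9% were above 0. Over all arrays Dusp1 gave r = -0.58 with Nr4a1, which did not pass the correction (adjusted permutation p = 0.103).

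The variant 2 probe of Nr4a3 followed many olfactory receptor genes, which serve smell in the nose and have no known part in bone. Its top 5 were the olfactory receptor Olfr522, Gm16876, the olfactory receptor Olfr360, Slc25a16 and L1cam, each with r of at least 0.99. Above r = 0.9 lay 1908 of 19751 genes, and 958 without sham 6-week replicate 2. Among the 1908 were 136 of 494 olfactory receptor genes, which is 27.5% of that list and 7.13% of the 1908. The mean level of those 494 genes ran from -4.10 on sham 6-week replicate 4, where Nr4a3 was lowest, to -2.18 on sham 6-week replicate 2, where Nr4a3 was highest. It correlated with Nr4a3 at r = 0.98 and rho = 0.95 (n = 16). The olfactory list was added after its likeness to Nr4a3 was seen on these same arrays, so this is a description with no p-value. Without the 2 farthest arrays r was 0.95, within slides it was 0.96 and 0.99, and at 1 and 6 weeks it was 0.98 and 0.98. The same mean gave r = 0.03 with Nr4a1 and -0.01 with Nr4a2, and 0.09 and 0.25 once group means were subtracted. On that centred measure 415 of the 494 genes were above 0 with Nr4a2 (median 0.20), against 55.1% of all genes past the filter (median 0.05). With Nr4a1 301 were above 0 (median 0.06), against 51.9% (median 0.01). Of the 19751 genes, 158 had probes above 60% GC, and their median r with the Nr4a3 probe was 0.84, against -0.01 over all these genes. In the other direction, the 1908 genes had a median GC of 45%, against 43.3% over all, and 3.14% of them had probes above 60% GC, against 0.8% of all. The olfactory receptor probes had a median GC of 43.3%. The same GC-rich probes had a median r of 0.06 with Nr4a1 and 0.19 with Nr4a2.

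**Figure D5:**
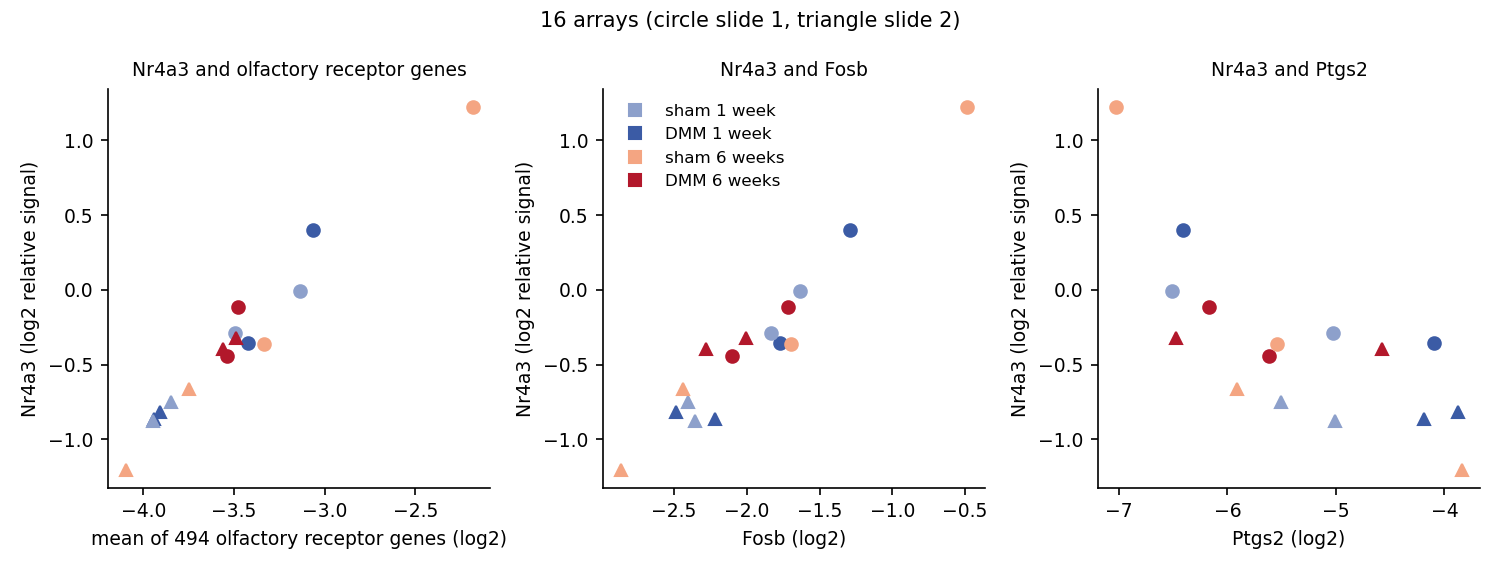
Relative level of Nr4a3 (variant 2 probe) against the mean of 494 olfactory receptor genes, Fosb and Ptgs2 on the 16 arrays, coloured by group, with circles for slide 1 and triangles for slide 2. The points rise together in the first 2 panels (r = 0.98 and 0.97) and fall in the third (r = -0.74), with sham 6-week replicate 2 at the end of each.

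Immediate early genes lay on both sides of this pattern. Nr4a3 was chosen with its levels in view. With group means subtracted, its variant 2 probe had r above 0.9 with 1908 of 19751 genes. The p-values for the genes below are therefore description and single out no gene. Fosb, an AP-1 subunit, gave r = 0.97 with Nr4a3 (adjusted permutation p = 0.000195) and Junb gave 0.85 (0.62 without sham 6-week replicate 2). Junb passed the correction by r (adjusted permutation p = 0.00331) and not by rho (0.64, adjusted permutation p = 0.0645). Ptgs2, the inducible cyclooxygenase, gave -0.74 (adjusted permutation p = 0.00322), with a probe well above background on 9 of 16 arrays. Atf3, a stress-induced repressor, gave -0.82 (adjusted permutation p = 0.00331). Within the times Fosb passed the correction (adjusted exact permutation p = 0.0387 at 1 week and 0.0184 at 6 weeks, n = 8). Junb did not (adjusted exact permutation p = 0.122 at 1 week and 0.171 at 6 weeks, n = 8). Atf3 did not either (adjusted exact permutation p = 0.119 at 1 week and 0.142 at 6 weeks, n = 8). Nor did Ptgs2 (adjusted exact permutation p = 0.204 at 1 week and 0.142 at 6 weeks, n = 8). Fosb itself differed by 0.05 ± 0.29 between the times, and by -0.18 without sham 6-week replicate 2. With the array's 75th percentile of signal, Nr4a3 gave r = -0.54 (adjusted permutation p = 0.142), and -0.16 without sham 6-week replicate 2. The part of probe composition or of array quality in the Nr4a3 signal was not tested.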

How the data were processed

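Total RNA from 16 laser-dissected samples was labelled with 1 dye and hybridised to Agilent mouse arrays. The deposited scanner files hold signal intensity per spot from Feature Extraction 10.7.3.1, background-subtracted and detrended, per the file headers. The authors' deposited value table holds log2 values for 50815 probes, made with limma 3.20.9 per the submitters' processing notes, and served as an alternative. Its columns each ranked their own array's probes best (16 of 16, lowest rho 0.996).

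Here log2 processed signals were scaled by each array's 75th percentile. Flagged spots were left out, probes well above background on at least 4 arrays were kept (43268), and a gene with several probes was read from the brightest by mean level. limma 3.58.1 in R 4.3.3 fitted 1 mean per group over 28250 genes with Benjamini-Hochberg adjustment at 0.05, and the code was tested on simulated data. Replicate numbers follow the record order and pair nothing. The members and gene lists were chosen with earlier results of these data known. Genes named are the members, fixed immediate early, regulator and bone genes, each member's 5 most alike genes, and listed genes past the threshold. Some other listed genes were named after their r with a member was seen, among them Alpl, Nr1d1, Nr1d2, Cx3cr1, Nr2f1, Nr2f2, Nr5a1 and Nr5a2. Precision is limited by 4 arrays a group.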

Additional observations from a re-analysis of the deposited data

Results flagged for a closer look

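In 1 of 24 combinations of probe and group, 1 array lay far from the other 3 by Dixon's criterion, and chance alone flags about 1 in 20. This was the Ensembl transcript probe of Nr4a3 on DMM 6-week replicate 2, at a relative level of -4.88 against -6.92 to -6.64 on the others. None of these 4 arrays was well above background for that probe.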

How the results depend on the processing

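The differences of the 3 genes in 5 comparisons were recomputed under 27 alternatives. Nr4a2 between the times kept its sign in all 27, from -1.99 to -0.94. The differences that moved by more than the SD within groups were those within a slide: Nr4a2 between the times after DMM (-2.74 on slide 1, -0.79 on slide 2) and Nr4a3 between DMM and sham at 6 weeks (-0.71 and 0.58). The 247 genes called between the times became 0 with median scaling, 0 without the filter, 441 with normexp and quantile normalization, 451 with probes above background on all arrays, 645 with slide as a block, and 5884 with array weights, which gave sham 6-week replicate 3 a weight of 9.12 and sham 6-week replicate 2 one of 0.0757. Array weights also gave 3305 after sham, 963 after DMM, 1 for DMM against sham at 6 weeks and 2 for its change between the times, where the other fits on all arrays gave 0. Leaving out single arrays gave 0 to 1502 between the times, 0 to 1 after sham, 0 to 27 after DMM and 0 to 1 for DMM against sham at 6 weeks. In these fits Nr4a2's difference stayed between -1.65 and -1.37. Leaving 1 array out assumes that its group varies like the others. No paired analysis was possible because replicate numbers follow the record order and no label ties a sham mouse to a DMM mouse. The main limits are 4 mice a group, 1 probe for Nr4a1, dim Nr4a3 probes, no unoperated mice, and no match of age at harvest between the times.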

Other observations

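Other receptors without a classical ligand were also listed. Of 15 measured, 9 were lower at 6 weeks, with a median of -0.21 and 0 called (13 lower with a median of -0.18 without sham 6-week replicate 2). Nr2f2 and Nr2f1, which act in mesenchymal and vascular cells, had r of 0.68 and 0.67 with Nr4a2 after group means were subtracted. Both of these, and Nr5a2 and Nr5a1 below, were named after their values were seen. Of the 15, 11 were above 0 with Nr4a2 (median 0.26), against 55.1% of all genes (median 0.05). Nr5a2 and Nr5a1, which act in steroid-making cells, had r of 0.96 and 0.95 with the variant 2 probe of Nr4a3. That probe had r above 0.9 with 1908 of 19751 genes. Of the 15, 9 were above 0 with it (median 0.13), against 54.3% of all genes past the filter (median 0.14). Over only the 19751 genes with a current symbol the median was -0.01.

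Lists of other cells differed between the times as well. All 5 B cell markers were higher at 6 weeks, with a median of 0.85 and 1 called (Ms4a1, 1.35 higher, limma adjusted p = 0.0490). Of 8 chondrocyte markers 7 were higher, with a median of 1.19 and 1 called (Chad, 1.68 higher, limma adjusted p = 0.0443). Both calls were lost in most other settings: Ms4a1 kept its call in 9 of 25 and Chad in 11 of 25.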
